A study of Mus musculus with 6 samples.

Results

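Cytochrome c oxidase, complex IV of the respiratory chain, is built from subunits of mitochondrial and nuclear origin with the help of dedicated assembly factors that do not stay in the finished enzyme. The nuclear genes of 10 such factors, Cox10, Cox11, Cox14, Cox15, Cox17, Cox18, Cox19, Sco1, Sco2 and Surf1, were taken by symbol from the 24411 genes of the count table. All 10 were listed. The question was whether Cox19 mRNA was higher in LSD1-deficient muscle by itself or together with the genes of its assembly partners.

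The data were poly(A) RNA-seq of the soleus (Sol) muscle, with 1 library per mouse, from 3 WT and 3 LSD1-mKO mice after voluntary wheel running (VWR). LSD1-mKO mice were Lsd1 flox/flox and carried the TgACTA1-CreERT2/+ transgene, while WT mice were Lsd1-floxed without CreERT2, and the labels give C57BL/6 for both groups. The mice were 8 weeks old when they entered single cages with a wheel, where they stayed for 38 days. Tamoxifen was injected at 75 mg/kg on 5 days, after the first 3 days on the wheel, and the study's methods describe the injections for WT as well as LSD1-mKO males. The wheel was taken away and food withdrawn before the muscles were sampled. No sedentary mice were in the series, so every value below is from trained muscle and none measures the training itself. The human ACTA1 promoter drives the Cre recombinase in differentiating and differentiated muscle cells, so other cells of the whole muscle keep Lsd1. In bulk muscle RNA, fewer cells of a type and less RNA per cell cannot be told apart.

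Complex IV passes electrons from cytochrome c to oxygen through heme A groups and copper centres, which must be made and inserted while the core subunits COX1 and COX2 are folded into the inner membrane. COX17 hands copper in the intermembrane space to SCO1 and SCO2, which load the copper centre of COX2, and to COX11, which serves the copper centre of COX1, while COX19 is a small intermembrane space protein that works with COX11. COX10 and COX15 make heme A, SURF1 acts at the maturation of COX1, COX14 stabilizes newly made COX1, and COX18 moves the tail of COX2 across the membrane. Slow and oxidative fibers, of which the Sol holds many, depend on this enzyme for respiration, and defects in several of these factors cause human complex IV deficiency.

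The WT libraries held 8940206 to 10989846 estimated counts and the LSD1-mKO libraries 10984664 to 13798059. Kdm1a, the gene of LSD1, had 40.5, 38.2 and 33.6 CPM (counts scaled to library size with edgeR's TMM factors) in WT and 14.6, 16.6 and 16.6 in LSD1-mKO, so that its mean was 42.6% of that in WT (edgeR with Benjamini-Hochberg adjustment, adjusted p = 0.0160). Markers of slow fibers (6 genes) summed to between 26305 and 33102 CPM and those of fast fibers (6 genes) to between 33294 and 51324 CPM over the 6 libraries, which overlapped between the groups. The summed markers of endothelial cells, fibroblasts, immune cells, adipocytes, Schwann cells and red blood cells (4 genes each) overlapped as well, with 0 of these 24 genes called and none at 0 in every library. WT replicate 1 had the lowest sums for fibroblasts (1026 CPM against 2251 and 3016 in the other WT mice) and immune cells (21.3 against 92.5 and 74.0). LSD1-mKO replicates 2 and 3 were close to it, with 1094 and 1089 CPM for fibroblasts and 26.78 and 35.85 for immune cells. LSD1-mKO replicate 1 had 1970 and 60.59 CPM, so the mice differed in these sums within both groups.

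None of the 10 genes passed the adjusted threshold of 0.05. By edgeR with Benjamini-Hochberg adjustment over 12828 genes, 0 of the 10 were called, where 0.0156% of all genes tested were called, 1 in each direction. DESeq2 also called 0 of the 10, against 0.334% of all genes with an adjusted p. Without adjustment (p under 0.05), Cox19 was the 1 member of 10 on the higher side in LSD1-mKO, against 3.52% of all genes, and 0 members were on the lower side, against 2.88%. Cox19 was also the single member whose LSD1-mKO values all lay above the WT values, against 6.63% of all genes, and Surf1 the single member whose LSD1-mKO values all lay below them, against 6.10% of all genes. With 10 members, 1 gene is 10% of the list. The fitted differences were positive for 6 members and negative for 4, and their median on the log2 scale was 0.05, beside -0.02 for all genes tested.

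**Figure D1:**
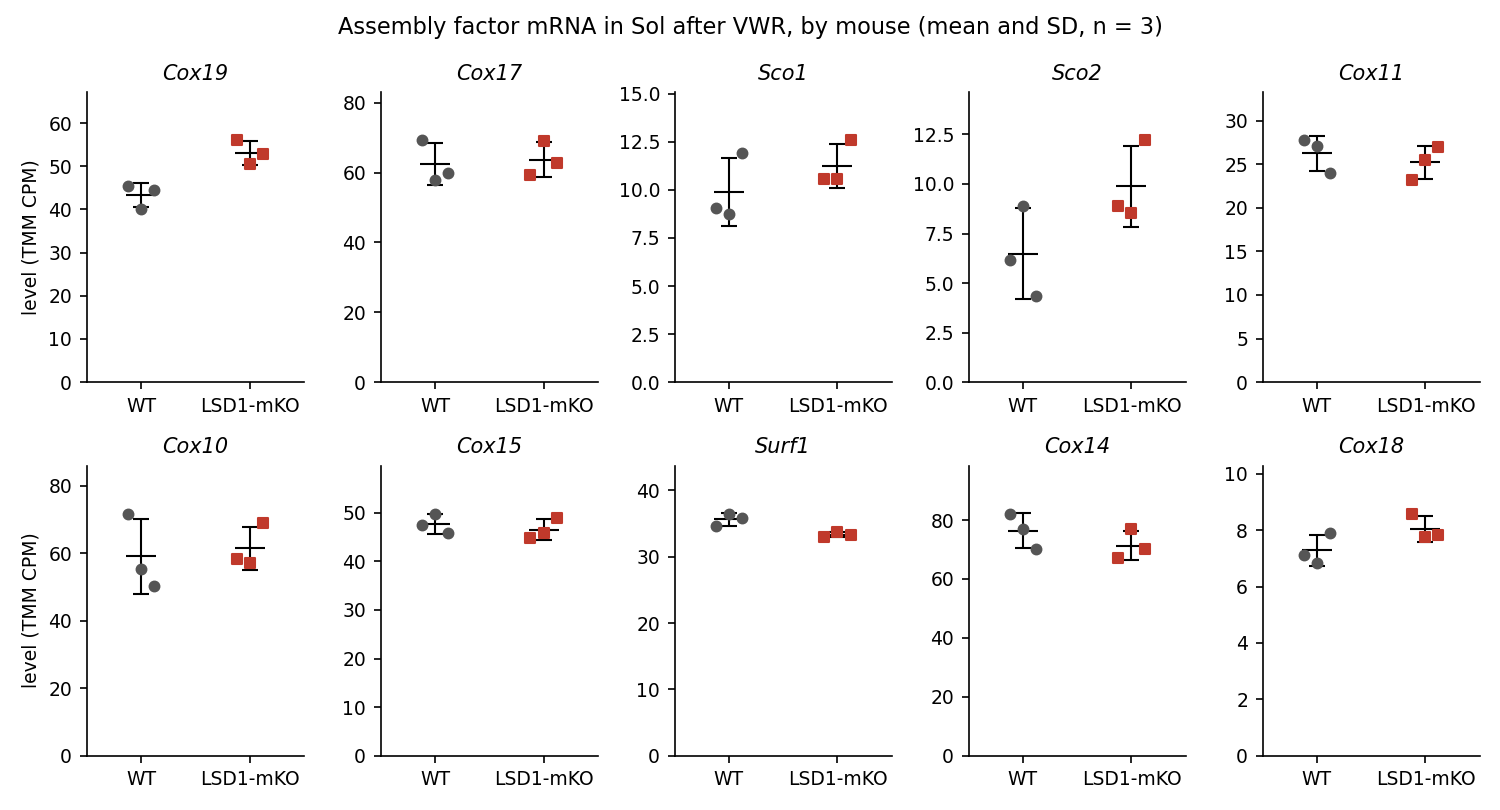
Level of each assembly factor mRNA in TMM CPM (y axis, from 0, with its own range in each panel) in 3 WT mice (gray circles) and 3 LSD1-mKO mice (red squares), with bars for the mean and SD. The LSD1-mKO mice lie above all WT mice for Cox19 (50.5 to 56.0 against 40.1 to 45.3) and below them for Surf1 (32.9 to 33.7 against 34.6 to 36.5), and the groups overlap for the other 8 genes.

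Cox19 (ENSMUSG00000045438.12; chr5:139336189-139351418, minus strand, GRCm38) was the member with the smallest p. Its level was 45.3, 40.1 and 44.5 CPM in WT and 56.0, 50.5 and 52.9 CPM in LSD1-mKO. The lowest LSD1-mKO mouse stood above the highest WT mouse, and the spread within the groups was 6.54% of the mean in WT and 5.18% in LSD1-mKO. The mean was 43.3 ± 2.83 CPM in WT and 53.1 ± 2.75 CPM in LSD1-mKO (SD, n = 3 each), or 123% of WT. On the log2 scale the fitted difference was 0.30 ± 0.09 (standard error), with a 95% interval of 0.09 to 0.50. The unadjusted p by edgeR was 0.0102, which placed Cox19 at rank 211 of 12828 genes and gave an adjusted p of 0.619 after Benjamini-Hochberg adjustment. The exact permutation test over the 10 splits of the 6 mice gave p = 0.1 (2-sided), the smallest it can give with 3 mice a group. Cox19 is in the gene cluster that the study itself picked from these libraries for higher levels in LSD1-mKO, so its difference here is a description and not independent evidence.

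Cox19 has 2 annotated coding transcripts that start at different exons, and all its deposited values were whole numbers. Of the coding genes nearest to Cox19 on each side, 0 were higher without overlap, against 6.63% of all genes. On one side, the nearest gene Adap1 had 1.69 to 2.61 CPM in WT and 2.24 to 3.26 in LSD1-mKO, and the groups overlapped (log2 fold change 0.35). The next was Get4, which helps insert tail-anchored proteins into membranes. Get4 had 65.6, 65.6 and 66.5 CPM in WT and 61.8, 61.8 and 57.9 in LSD1-mKO. This was lower without overlap (log2 fold change -0.12), as for 6.10% of all genes. On the other side, Cyp2w1 had 0 counts in every library and 3110082I17Rik overlapped between the groups, with a log2 fold change of -0.12.

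The bases before the Cox19 start are shown because Cox19 was the gene with the smallest p. The RefSeq promoter table for GRCm38.p6 held windows of 250 bases before and 50 after the start for 8 of the 10 members, and gave none for Cox17 and Cox18. The 183 bases printed here are those of the Cox19 window that lie upstream of every exon GENCODE vM21 places at this start (chr5:139345234-139345416, minus strand). They fall within the intron that follows the upstream start of the other coding transcript. The capitals mark the 8 CpG dinucleotides, which are the sites that DNA methylation can modify.
Cox19: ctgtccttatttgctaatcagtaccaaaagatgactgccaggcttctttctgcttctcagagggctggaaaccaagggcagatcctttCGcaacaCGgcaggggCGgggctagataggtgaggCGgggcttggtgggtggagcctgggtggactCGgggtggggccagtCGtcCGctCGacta

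In the whole window of 300 bases, GC content was 60.3% for Cox19 and 54.3% to 70.7% over the 8 members, above the median of 52.7% over 32851 promoters. The members held 15 to 42 CpG dinucleotides each, with 22 at Cox19, beside a median of 7 over all promoters. Each window was searched on either strand for AAGGTCA, an element read by nuclear receptors of the ERR family, for CCGGAAG, the core read by ETS factors such as GABP, and for GCATGCGC, a core read by NRF1. The ERR element was in 0 of 8 members and in 4.72% of all promoters, and the NRF1 core in 0 of 8 and in 2.71% of all. The ETS core was in 5 of 8 members and in 8.86% of all promoters. The shares over all promoters were not matched to the members for GC or CpG content, and CCGGAAG itself holds a CpG. The 5 windows that hold it are printed here because this is the sequence feature that most members shared, with the core or its reverse complement (CTTCCGG) in capitals and up to 11 bases on each side.
Cox10: agcgctgggagCCGGAAGtgacaagagga
Cox15: cgacgcctgacCCGGAAGtgcttgttctt
Cox14: agaggtagaagCCGGAAGttcaaggct
Sco1: gcctccttcggCTTCCGGcagaagcggaa
Surf1: ctggccctactCTTCCGGtcacggttctc

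These windows are at chr11:64079482-64079510 (minus strand), chr19:43752976-43753004 (minus), chr15:99725641-99725667 (plus), chr11:67052614-67052642 (plus) and chr2:26916511-26916539 (minus), in the order printed. The match began at base -27 from the start in Cox10 and at -45 in Sco1, and at 8, 35 and 3 after it in Cox15, Cox14 and Surf1. Cox19, Cox11 and Sco2 held none of the 3 motifs in their windows. The 5 genes with the ETS core had fitted log2 fold changes between -0.10 and 0.18. The 3 without it had 0.30 (Cox19), -0.06 (Cox11) and 0.60 (Sco2). None of these genes was called, and a link between the motif and the fold changes was not tested. A match is a run of letters in a window and not a measured binding site.

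COX17 is the copper chaperone at the head of the copper route, and for its mRNA no difference beyond the spread between mice was found. Cox17 (chr16:38346991-38352763, plus strand) had 69.2, 57.9 and 59.9 CPM in WT and 59.3, 69.0 and 62.6 in LSD1-mKO. The highest value was in a WT mouse and the groups overlapped throughout. The fitted log2 fold change was 0.03 with a 95% interval of -0.20 to 0.27. The upper end was below the fitted value of Cox19 (0.30) but within the 95% interval of Cox19 (0.09 to 0.50). Cox17 shares 257 exon bases with Gm21987, a gene annotated on the same strand that was not among the counted genes. All deposited values of Cox17 were whole numbers.

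Cox11 (chr11:90638173-90644931, plus strand), whose product works beside COX19, also stayed within the spread between mice. It had 27.7, 27.1 and 23.99 CPM in WT and 23.2, 25.5 and 26.9 in LSD1-mKO. The log2 fold change was -0.06 with a 95% interval of -0.29 to 0.18. Cox11 shares 688 exon bases with Tom1l1, a gene on the opposite strand, and the deposited values of Cox11 were not whole numbers in 6 of 6 libraries. Tom1l1, whose product is an adaptor in endosomal sorting, had 12.9, 12.4 and 12.0 CPM in WT and 14.9, 15.6 and 15.6 in LSD1-mKO. This was higher without overlap, as for 6.63% of all genes. The log2 fold change was 0.30 (unadjusted p by edgeR 0.0208, adjusted p = 0.698 after Benjamini-Hochberg adjustment). How the counting divided reads in the shared stretch was not tested.

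The SCO genes encode a pair of related copper-binding proteins of the inner membrane. Sco1 (chr11:67052670-67067070, plus strand) had 9.04, 8.73 and 11.9 CPM in WT and 10.6, 10.6 and 12.6 in LSD1-mKO. A single WT mouse, replicate 3, kept the groups from standing apart. The log2 fold change was 0.18 ± 0.16 (standard error), with a 95% interval of -0.20 to 0.55.

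Sco2 (chr15:89371637-89373846, minus strand) had the largest fitted difference among the members and also the largest spread. Its level was 6.15, 8.91 and 4.35 CPM in WT and 8.88, 8.54 and 12.2 in LSD1-mKO. WT replicate 2 lay above 2 of the LSD1-mKO mice, and the other WT mice lay below all of them. The spread within the group was 35.5% of the mean in WT and 20.5% in LSD1-mKO, where 49.2 to 131 counts per library allow a counting error of 8.73% to 14.2%. The log2 fold change was 0.60 ± 0.27 (standard error), with a 95% interval of -0.01 to 1.21 (unadjusted p by edgeR 0.0540, adjusted p = 0.766 after Benjamini-Hochberg adjustment). It ranged from 0.37 without WT replicate 3 to 0.92 without WT replicate 2 when each mouse was left out in turn. DESeq2 gave an unadjusted p of 0.0401 for Sco2 and an adjusted p of 0.9998.

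The small Sco2 gene is nested among the exons of its neighbours, sharing 829 exon bases with Ncaph2 on the opposite strand and 856 with Tymp on the same strand. Its deposited values were not whole numbers in 6 of 6 libraries, so its level is uncertain. Ncaph2, a condensin subunit gene with 88.9 to 111 CPM, overlapped between the groups (log2 fold change -0.06). Tymp, the gene of thymidine phosphorylase, had 1.69 to 1.87 CPM in WT and 0.94 to 1.58 in LSD1-mKO. This was lower without overlap, as for 6.10% of all genes, and so opposite in direction to Sco2. Tymp had only 12.5 to 21.2 counts per library. Its log2 fold change was -0.40 ± 0.31 (standard error), with an unadjusted p by edgeR of 0.221, so a difference in Tymp was not resolved. How the counting divided reads in the exons shared with Sco2 was not tested.

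**Figure D2:**
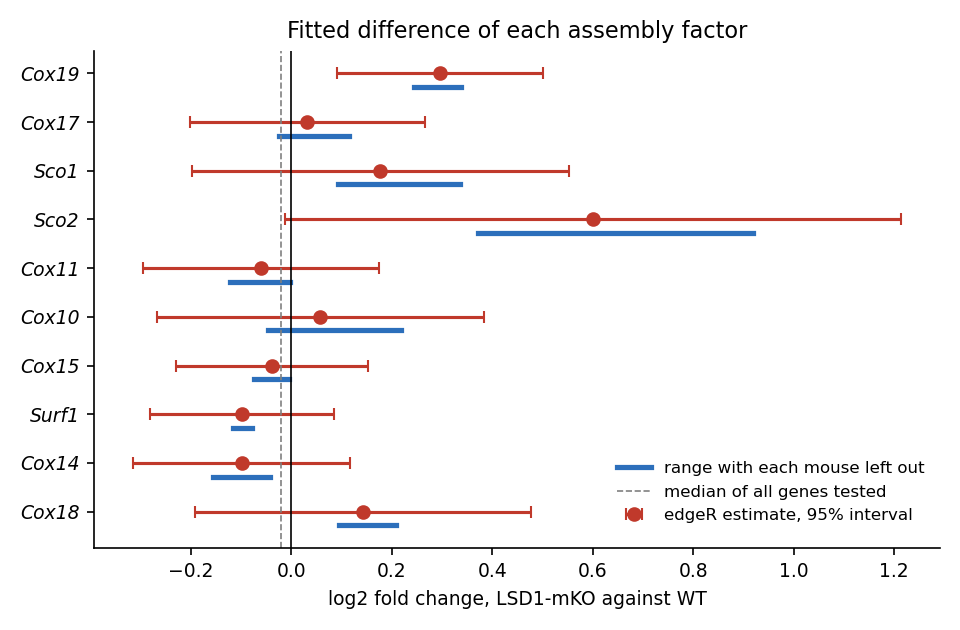
Fitted log2 fold change of each assembly factor (x axis, LSD1-mKO against WT, edgeR) with its 95% interval in red, and in blue the range of the estimate when each of the 6 mice was left out in turn. The interval of Cox19 (0.09 to 0.50) is the single one that lies above 0, the other 9 span 0, and the dashed line marks the median of all genes tested (-0.02).

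For the heme A genes the groups overlapped. Cox10 (chr11:63962627-64079468, minus strand), which farnesylates heme, had 71.7, 55.4 and 50.4 CPM in WT and 58.4, 57.3 and 68.9 in LSD1-mKO. WT replicate 1 was the highest of all 6 mice and the other WT mice were the lowest. The log2 fold change was 0.06 with a 95% interval of -0.27 to 0.38, and its sign depended on single mice, being -0.05 without WT replicate 3 and 0.22 without WT replicate 1. Cox15 (chr19:43733254-43753000, minus strand), which completes heme A, was among the steadiest members, with 47.5, 49.8 and 45.8 CPM in WT and 44.8, 45.8 and 48.9 in LSD1-mKO. The fitted difference was -0.04 on the log2 scale, with a 95% interval of -0.23 to 0.15. Cox15 shares 444 exon bases with Entpd7 and 5 with Cutc, both on the opposite strand. The deposited values of Cox15 were not whole numbers in 4 of the 6 libraries, and how the counting divided shared reads was not tested.

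Surf1 (chr2:26913381-26916530, minus strand) had the smallest spread of the members in TMM CPM (2.65% of the mean in WT and 1.10% in LSD1-mKO). In TPM, as a share of the mean, this held in LSD1-mKO but not in WT. In TMM CPM, Surf1 was the member that stood apart in the opposite direction to Cox19. It had 34.6, 36.5 and 35.8 CPM in WT and 32.9, 33.7 and 33.3 in LSD1-mKO. Every LSD1-mKO mouse lay below every WT mouse, with a mean of 93.5% of WT. The log2 fold change was small (-0.10, standard error 0.08, 95% interval -0.28 to 0.09), the unadjusted p by edgeR was 0.255, and the exact permutation test gave p = 0.1, its smallest value (n = 3 each). With the raw library size or the summed complex IV subunit counts as the scale, the Surf1 groups overlapped. They overlapped in TPM as well, at 60.4 to 74.0 in WT and 61.7 to 63.6 in LSD1-mKO. On the subunit scale 1 member was still lower without overlap, against 5.68% of all genes, but it was Cox14. Surf1 shares 137 exon bases with Surf2 on the opposite strand, whose groups overlapped (log2 fold change 0.09).

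For the factors that act on the core subunits the groups overlapped too. Cox14 (chr15:99725618-99728136, plus strand) had 82.1, 76.9 and 70.3 CPM in WT and 67.0, 76.8 and 70.2 in LSD1-mKO (log2 fold change -0.10, 95% interval -0.31 to 0.12). Cox18 (chr5:90214724-90224001, minus strand) had 7.11, 6.84 and 7.91 CPM in WT and 8.58, 7.74 and 7.82 in LSD1-mKO. WT replicate 3 lay above 2 LSD1-mKO mice, and with 59 to 116 counts per library the counting error was 9.28% to 13.02%. The log2 fold change of Cox18 was 0.14 with a 95% interval of -0.19 to 0.48. A difference of the size of that in Cox19 was therefore not resolved for Cox18. The same holds for Cox10 and the SCO genes, whose 95% intervals also held the fitted value of Cox19.

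To ask whether Cox19 differed from its partners within the same library, the log2 ratio of Cox19 to each other member was taken in each mouse, which removes the scaling between libraries. These ratios were not tested, since Cox19 was singled out with its difference known. The ratio was higher on average in LSD1-mKO for 8 of 9 members, and for 5 of 9 the groups did not overlap. Those 5 were Surf1, Cox14, Cox11, Cox15 and Cox18. As the Cox19 level itself stood apart, so did its ratio to 46.7% of 10207 other genes of at least 5 CPM, and 5 of 9 is near that background. The ratio to Cox14 was -0.86, -0.94 and -0.66 in WT and -0.26, -0.60 and -0.41 in LSD1-mKO, a difference of 0.40. The ratio to Surf1 was 0.39, 0.14 and 0.31 in WT and 0.77, 0.59 and 0.67 in LSD1-mKO, a difference of 0.39. The ratio to Cox11 differed by 0.35 and that to Cox15 by 0.33. These separations largely restate the gap in the Cox19 level itself.

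The ratio to Cox18 differed by 0.15, from 2.49 to 2.67 in WT against 2.71 to 2.76 in LSD1-mKO, so the groups stood apart by a small margin. The ratios to Cox10 (difference 0.23), Cox17 (0.26) and Sco1 (0.10) overlapped between the groups, and the ratio to Sco2 was lower on average (-0.36) and overlapped. Against the mean log2 level of the other 9 members, Cox19 was at 0.75, 0.60 and 0.85 in WT and 1.08, 0.89 and 0.85 in LSD1-mKO. The highest WT mouse and the lowest LSD1-mKO mouse nearly touched there, and the mean difference was 0.21. On the fitted scale, the value of Cox19 lay within the 95% interval of Cox10, Cox18, Sco1 and Sco2 (4 of 9 other members). It lay above that of the other 5. This sets aside the error of the Cox19 value, whose own interval was 0.0907 to 0.5017. That interval overlapped those of Cox17 (upper end 0.2658), Cox11 (0.1756), Cox15 (0.1535) and Cox14 (0.1179). It cleared that of Surf1 (upper end 0.0854) by a small margin.

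**Figure D3:**
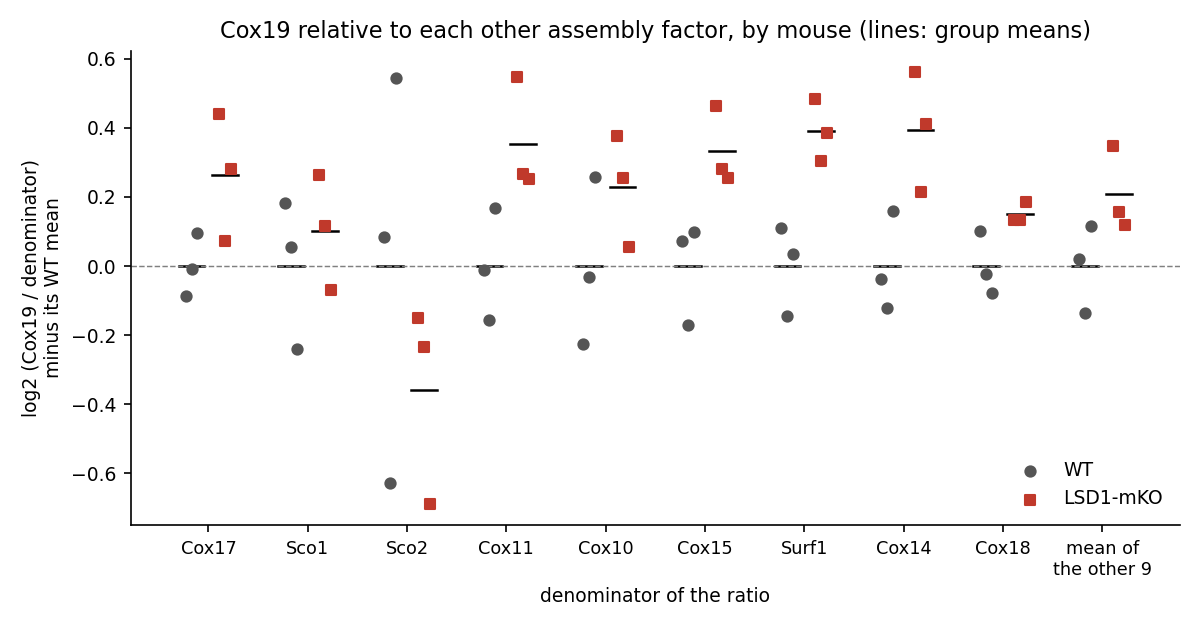
Log2 ratio of Cox19 to each other member (x axis) in each mouse, centred on the WT mean of that ratio (y axis, log2 units), for WT (gray circles) and LSD1-mKO (red squares), with lines for group means. The groups stand apart for Cox11, Cox15, Surf1, Cox14 and Cox18 and overlap for Cox17, Sco1, Sco2 and Cox10.

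The genes whose level over the 6 mice was most like that of Cox19 were sought among 10210 other genes of at least 5 CPM on average, by the root mean square difference of log2 CPM centred on the 6 mice. The 5 closest were Dnajc12 (0.03 log2 units), Nudt4 (0.04), Gstm5 (0.04), Cep76 (0.04) and Ntmt1 (0.04). None of the other 9 members was among them. Cox18 was the closest, in place 167 with a difference of 0.09, followed by Sco1 in place 2331 and Cox17 in place 2962. The others lay between place 4090 (Cox15) and place 9425 (Sco2). As Cox19 had groups apart, the genes most like it had to have this too, so their differences add nothing to that of Cox19.

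Levels can be compared between genes only per transcript length. As TPM, which divides counts by transcript length and here used the longest coding transcript of each gene, the order of mean WT levels was Cox14 (235 ± 17.2, SD, n = 3), Surf1 (67.8 ± 6.90), Cox11 (47.8 ± 4.40), Cox10 (44.9 ± 5.70), Cox19 (39.1 ± 1.58), Cox17 (37.5 ± 0.89), Cox15 (22.2 ± 2.30), Cox18 (12.2 ± 1.23), Sco2 (11.6 ± 4.72) and Sco1 (9.15 ± 1.79). Within the run from Cox11 to Cox17 and within that from Cox18 to Sco1, neighbours in this order differed by less than the sum of their SDs, while Cox14 and Surf1 stood above the rest and Cox15 stood between the runs. In LSD1-mKO, Cox19 had 47.7 ± 2.26 TPM and stood above Cox10 (46.7 ± 5.05) and Cox11 (45.6 ± 3.62), within their spread. The order rests on the transcript chosen, because the shortest coding transcript would put Cox17 at 311, Surf1 at 237 and Cox19 at 203 TPM in WT. The 10 genes together summed to between 496 and 564 TPM in the 6 libraries, and the groups overlapped.

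The wider set of complex IV assembly genes gave no call either. Of 25 further assembly genes, 24 were listed and 23 were tested, of which 14 had a higher and 9 a lower fitted level in LSD1-mKO, with 0 called and a median log2 fold change of 0.04. The largest positive differences were those of Timm21 (0.19), whose product links protein import to assembly, and Cmc1 (0.19), a twin cysteine motif protein like COX19. Cmc1 had 13.7 to 15.8 CPM in WT and 16.4 to 18.3 in LSD1-mKO and was the 1 gene of 23 that was higher without overlap, against 6.63% of all genes, while 0 were lower without overlap, against 6.10%. The most negative were those of Slirp (-0.20), a partner of LRPPRC in mitochondrial mRNA stability, and Higd2a (-0.11). The summed level of the 24 genes was 964 to 1080 CPM in WT and 967 to 1084 in LSD1-mKO.

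Among the 16 tested genes of the structural subunits that these factors put together, 0 were higher without overlap, against 6.63% of all genes. Of 17 nuclear-encoded subunit genes, Cox6b2 was too low to test, and the others had 11 higher and 5 lower fitted levels, 0 calls and a median log2 fold change of 0.03. The largest positive differences were those of Cox7b (0.09) and Cox5a (0.09). Cox6a1, the broadly expressed form of subunit VIa, had 47.0, 45.2 and 45.8 CPM in WT and 39.7, 35.2 and 37.5 in LSD1-mKO. This gene was lower without overlap (log2 fold change -0.29, standard error 0.08), the 1 subunit gene of 16 to be so, against 6.10% of all genes. It was also the 1 subunit gene with an unadjusted p under 0.05 on the lower side (0.00777 by edgeR), against 2.88% of all genes. The adjusted p was 0.578 by edgeR after Benjamini-Hochberg adjustment. The next lower was Cox4i1 (-0.09). Genes of the mitochondrial genome, which encode COX1 and COX2 themselves, were not analysed here.

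Among 10 genes of copper handling, 9 were tested, with 2 higher and 7 lower fitted levels, 0 calls and a median of -0.10. The positive ones were Slc25a3 (0.14), whose product carries phosphate and copper into the matrix, and Sod1 (0.06). The metallothionein genes Mt2 (-0.77) and Mt1 (-0.59) had the most negative values and a wide spread, with Mt1 at 48.3 to 138 CPM in WT and 41.3 to 114 in LSD1-mKO. Atox1 and Ccs, which encode cytosolic copper chaperones, were the 2 genes of 9 that were lower without overlap, against 6.10% of all genes. Atox1 had 15.3 to 15.8 CPM in WT and 12.7 to 14.04 in LSD1-mKO (log2 fold change -0.21). Ccs had 15.1 to 15.9 CPM in WT and 14.2 to 15.0 in LSD1-mKO (-0.10), and its groups overlapped under some other scalings, library size alone among them. Of the 3 genes of oxidative folding in the intermembrane space, the route by which COX17 and COX19 are thought to be imported, Chchd4 (the oxidoreductase) had a log2 fold change of 0.21 with overlapping groups. Gfer, the oxidase that recharges CHCHD4, had 18.5 to 21.2 CPM in WT and 15.8 to 18.2 in LSD1-mKO, lower without overlap (-0.19; 1 gene of 3, against 6.10% of all genes), and Aifm1 was at 0.04. None of the 3 was called.

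**Figure D4:**
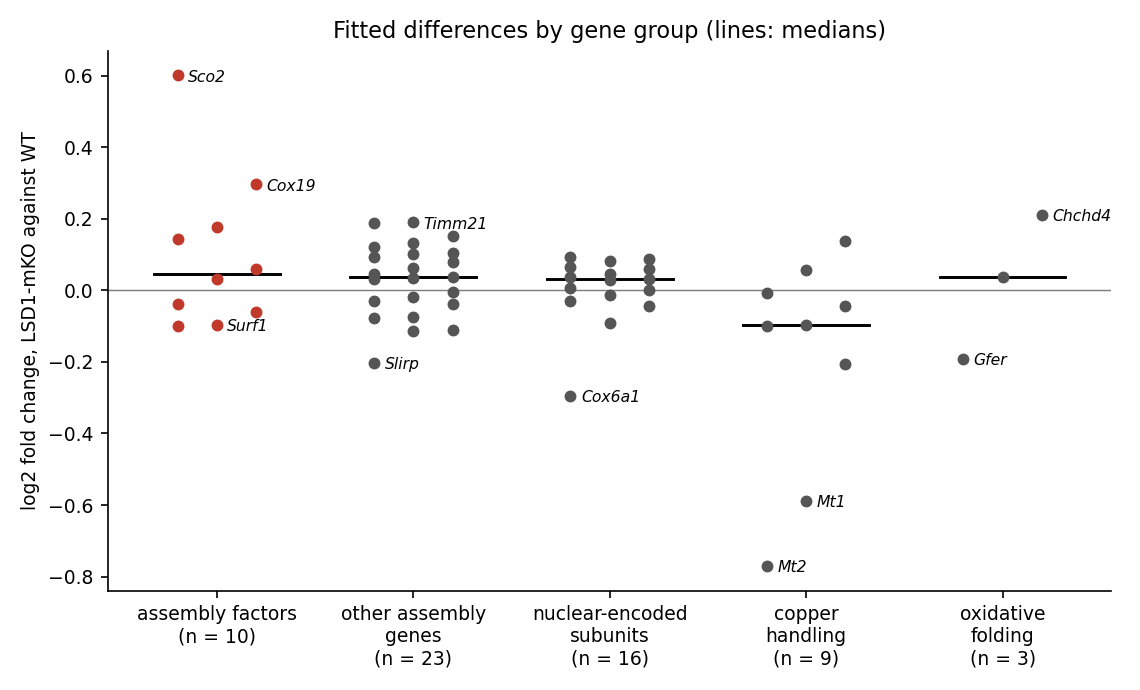
Fitted log2 fold change (y axis, LSD1-mKO against WT, edgeR) of each tested gene in 5 groups (x axis), with lines for group medians. The medians are 0.05 for the 10 assembly factors, 0.04 for 23 other assembly genes, 0.03 for 16 subunits, -0.10 for 9 copper handling genes and 0.04 for 3 oxidative folding genes, and Cox19 and Sco2 lie above every other gene plotted.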

How the data were processed

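The authors purified poly(A) RNA, sequenced 75-base single-end reads and aligned them to mm10 with STAR. They deposited estimated counts per gene by symbol, not normalized, of which 8.33% to 9.94% of the values in each library were not whole numbers. The counting tool, the annotation and the use of strand are not given in the sources used here, so reads of overlapping genes could have been shared out. The authors' DESeq2 comparison (fold changes and p-values) was not used.

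Estimated counts were rounded and tested with edgeR 4.0.16 in R 4.3.3 (TMM, filterByExpr by genotype, quasi-likelihood test, Benjamini-Hochberg adjustment over 12828 genes, threshold 0.05), without covariates. The study named DESeq2 for this dataset; DESeq2 1.42.0 and limma 3.58.1 (voom) were alternatives, as were other scalings and filters, a replicate block and each mouse left out. The test was tried first on simulated data whose changes were larger than any fitted to the members. That trial does not cover differences as small as theirs. TPM used GENCODE vM21 lengths (GRCm38), which covered 99.7% of counts. Promoters came from RefSeq GRCm38.p6. Counting errors cover sampling of reads only.

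The members and gene lists were chosen with earlier results of these data known. All members were named, and from each list the 2 largest and 2 smallest log2 fold changes (for 3 genes, all), the 5 genes most like Cox19 and the 2 nearest coding genes on each side of it. Atox1, Ccs, Cox6a1, Cmc1, Gfer and the overlapping genes are described further because their groups did not overlap or their exons are shared. These were chosen after their values were seen.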

Additional observations from a re-analysis of the deposited data

How the results depend on the processing

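Across 150 comparisons (15 alternatives for each of 10 genes), 0 gave a call, 146 kept the sign of the fitted difference and 4 reversed it. The reversals were Cox10 (-0.0454 without WT replicate 3 and -0.0296 without LSD1-mKO replicate 3, and up to 0.2192 without WT replicate 1) and Cox17 (-0.0175 without WT replicate 2 and -0.0236 without LSD1-mKO replicate 2, and up to 0.1148 without WT replicate 1). Cox19 stayed higher in every alternative, between 0.24 and 0.34 with mice left out, with an adjusted p from 0.223 to 0.998 over all alternatives (edgeR, DESeq2 or limma with Benjamini-Hochberg adjustment). The members at an unadjusted p under 0.05 numbered 2 (Cox19 and Sco2) with DESeq2, with voom and with no filter on low counts, and ranged from 1 to 2 with mice left out (2 without WT replicate 2). Members higher without overlap ranged from 1 to 3 with mice left out, 3 without WT replicate 3 (9.86% of all genes) and 2 without WT replicate 1 (15.9%), WT replicate 2 (10.6%) or LSD1-mKO replicate 2 (11.2%). Members lower without overlap numbered 0 with library size alone (6.43% of all genes). They ranged from 1 to 3 with mice left out, 3 without WT replicate 3 (9.92% of all genes). With the complex IV subunit counts as the scale, the 1 such member was Cox14 in place of Surf1 (5.68% of all genes). The median log2 fold change of the members ranged from -0.0204 without WT replicate 3 to 0.1178 without WT replicate 1, so its sign rests on single mice. Over all genes, edgeR called 2 and DESeq2 42, and no filter on low counts gave 8 higher and 3 lower. In the fit with a replicate block, 6 members were higher, 4 lower and 0 called, with a median of 0.05, and 1 gene in all was called. In deviations from the group means, same-numbered mice correlated at -0.373, -0.089 and -0.145, and 0 of 6 libraries correlated best with its own number. This gave no sign that the numbers pair the mice, but with so few mice a group it cannot exclude pairing. Sco2, Sco1 and Cox18 had 49.2 to 146 counts per library and the widest intervals. The part of depth in this was not tested. Between WT mice the spread was 35.49% of the mean for Sco2, 17.68% for Sco1 and 7.59% for Cox18. Their counting errors were 8.73% to 14.25%, 8.28% to 11.55% and 9.28% to 13.02%. Cox10, with 567 to 791 counts, had an interval nearly as wide as that of Cox18.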
